A study of Mus musculus with 18 samples.

Results

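The elastic fibre genes described here are 10 mouse genes, taken by name from a count table of 30583 genes through their Ensembl identifiers: Eln, Fbn1, Fbln1, Fbln2, Fbln5, Efemp1, Efemp2, Emilin1, Mfap4 and Mfap5. All 10 were found, and all 10 passed the filter on low counts, among 16311 genes that did. RNA sequencing with poly(A) selection was done on hearts of 18 male C57BL/6JR mice aged 12 weeks, in 6 groups of 3. In 5 groups the left anterior descending coronary artery was tied to cause a myocardial infarction, and tissue was taken 10 min or 1, 6, 24 or 72 h later. In the sham group (0 h) the suture was passed around the artery and not tied; all mice had pentobarbital anaesthesia and, before death, isoflurane. No transgene, deletion or drug treatment is named for any group. RNA came from the myocardium of the left ventricle, infarcted in the operated mice, and the labels do not give the shares of infarct, border and remote tissue in it.

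Elastic fibres give arteries, valves, the epicardium and the interstitium of the heart their recoil. They form when tropoelastin, the soluble product of Eln, coacervates on a scaffold of fibrillin microfibrils and is joined into an insoluble polymer by lysyl oxidases. Fibulins carry tropoelastin and the enzymes to the scaffold, emilins sit where elastin meets microfibril, and microfibril-associated proteins bind fibrillin. In adult tissue the fibres turn over slowly, and their genes are read mainly by fibroblasts, smooth muscle cells and other mesenchymal cells.

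Libraries held 18.2 to 25.1 M counts (M for mega). The labels name the cell type as cardiomyocytes and describe no separation of cells. Summed over marker lists, the sham libraries carried 61167 ± 2714 CPM (counts per M counts after scaling of libraries by TMM, SD, n = 3) of cardiomyocyte genes. They also carried 2768 ± 62.2 CPM of endothelial genes, 2589 ± 181 CPM of fibroblast genes and 2170.3 ± 98.7 CPM of vascular smooth muscle genes. Of that last sum 1709.7 ± 110.1 CPM was Des, the desmin gene, which cardiomyocytes also express, and the other 7 markers gave 461 ± 15.3 CPM. The libraries are read here as whole myocardium. In such bulk samples, fewer cells of a type and less RNA per cell cannot be told apart. Cardiomyocyte markers summed to 34495 ± 7952 CPM at 24 h and 17347 ± 2639 CPM at 72 h, while leukocyte markers were 66.7 ± 0.724 CPM in sham and 705 ± 38.6 CPM at 72 h.

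Every one of the 10 genes varied over the 6 groups (edgeR quasi-likelihood F test, Benjamini-Hochberg adjusted p from 6.69e-13 for Emilin1 to 0.00071 for Efemp1), where 78.4% of all tested genes did. Against sham, at an adjusted p under 0.05, 1 of the 10 was called at 10 min, and it rose; of all tested genes 0.0736% were called and 0.0307% rose. At 1 h 0 were called, against 0.294%, and 0 of the 10 had an unadjusted edgeR p under 0.05. At 6 h 3 rose and 0 fell, against 16.3% of all genes higher and 12.2% lower. At 24 h the group split: 5 rose and 4 fell, against 23.7% of all genes higher and 20.2% lower. At 72 h 8 rose and 0 fell, against 34.2% of all genes higher and 32.2% lower. The median log2 fold change of the 10 was 0.42 at 24 h and 2.42 at 72 h, beside 0.01 and 0.03 over all tested genes. These comparisons share the sham libraries, so each time was also set against the time before.

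**Figure D1:**
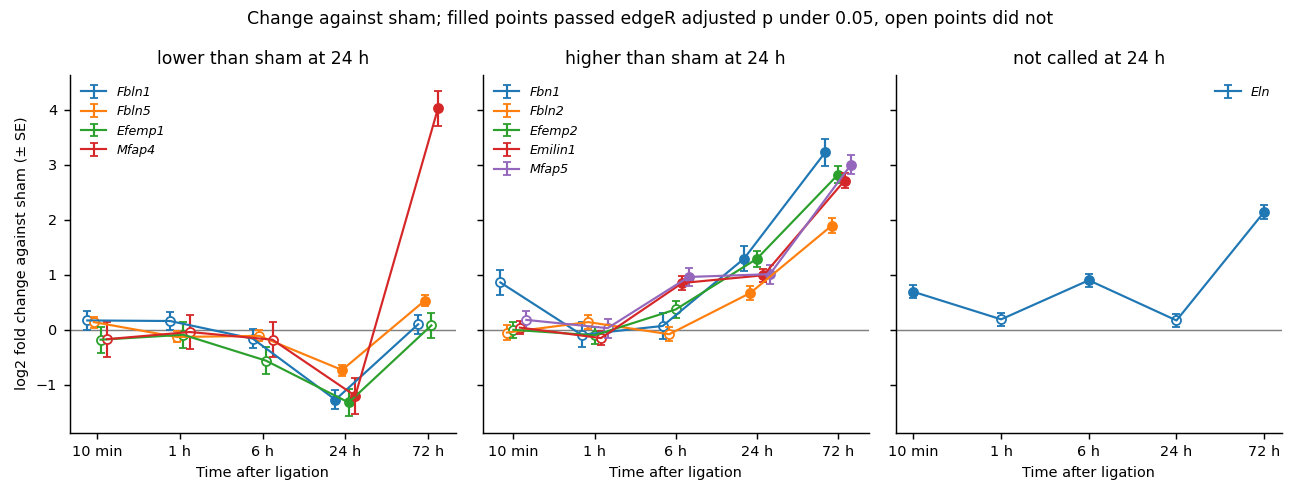
Log2 fold change of each of the 10 elastic fibre genes against sham (y axis, points with standard error from the edgeR model) by time after ligation (x axis), with genes set in 3 panels by their call at 24 h; filled points passed an adjusted p of 0.05 and open points did not. The 4 genes of the left panel lie between -1.32 and -0.73 at 24 h, the 5 of the middle panel between 0.67 and 1.29, and at 72 h the 10 reach from 0.08 for Efemp1 to 4.02 for Mfap4.

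Eln (ENSMUSG00000029675; GRCm38, chromosome 5, 134702593 to 134747323, minus strand) encodes tropoelastin, the rubber-like core of the fibre. Sham libraries held 49.0, 58.2 and 55.1 CPM of Eln, and libraries 10 min after ligation held 91.6, 91.3 and 79.5 CPM. At 1 h the values were 72.5, 57.4 and 55.4 CPM, and at 6 h they were 109, 91.5 and 102 CPM. At 24 h they were 69.6, 52.9 and 60.5 CPM, and at 72 h 223, 225 and 265 CPM. The 10 min, 6 h and 72 h libraries all lay above the highest sham library, while those at 1 h and 24 h overlapped sham.

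Eln was thus above sham at 3 times that were not consecutive. At 10 min it rose 1.62-fold (log2 0.69, SE 0.12, edgeR adjusted p = 0.0415), 1 of 12 genes called at that time. That call was lost with limma on log2(FPKM + 1) (adjusted p = 0.0573) and when any 1 of the 6 libraries compared was left out (edgeR adjusted p 0.0742 to 0.267, log2 fold change 0.63 to 0.76). From 10 min to 1 h Eln changed by -0.50 (SE 0.12, edgeR adjusted p = 0.133), which did not pass the test; of all genes, 0.307% did. It rose from 1 h to 6 h by 0.71 (SE 0.12, edgeR adjusted p = 0.000574) and fell from 6 h to 24 h by 0.72 (SE 0.12, edgeR adjusted p = 0.000417). From 24 h to 72 h it rose 3.9-fold (log2 1.96, SE 0.13, edgeR adjusted p = 1.01e-09), which left it 4.4-fold above sham (log2 2.14, SE 0.13, edgeR adjusted p = 1.41e-10). Its difference from sham at 24 h was 0.17 (SE 0.12, edgeR adjusted p = 0.268), and 0.36 when scaled to library totals in place of TMM (edgeR adjusted p = 0.017).

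Cell markers at the early times are given beside these values. At 10 min the summed fibroblast markers were 2909, 2917 and 3219 CPM, above the sham values of 2659, 2383 and 2724 CPM, and 0 of the 11 fibroblast markers, and 0 of the genes on the other lists, passed the test; Col3a1, for example, was 219 ± 16.6 CPM against 135 CPM in sham. Of all tested genes 0.0736% passed at 10 min. Vascular smooth muscle markers were 1765 to 2144 CPM at 10 min and 2059 to 2247 CPM in sham. Des, which cardiomyocytes also express, made up 1566 ± 161 CPM of that sum at 10 min. The other 7 markers summed to 385 to 478 CPM at 10 min and 445 to 475 CPM in sham. At 6 h leukocyte markers were 743, 309.7 and 143 CPM and atrial markers 563, 114 and 286 CPM in the same libraries. The part of these markers in the Eln values was not tested. A predicted antisense gene overlaps exons of Eln, and it held at most 4 counts in any library.

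Fbn1 (ENSMUSG00000027204; GRCm38, chromosome 2, 125300594 to 125507993, minus strand) encodes fibrillin-1, the main rod of the microfibril and a store for latent TGF-beta. Its sham libraries held 58.6, 46.4 and 58.1 CPM. At 10 min they held 107, 87.2 and 103 CPM, at 1 h 37.8, 49.7 and 66.3 CPM, and at 6 h 77.2, 53.8 and 40.2 CPM. At 24 h the values were 109, 148 and 143 CPM, and at 72 h 460.2, 632 and 425 CPM. The 10 min libraries lay above all sham and 1 h libraries, but with the spread shared over all groups the difference from sham did not pass the test (log2 0.86, SE 0.23, edgeR adjusted p = 0.334). It passed with DESeq2 (adjusted p = 0.0402) and with an edgeR fit of these 2 groups alone (adjusted p = 0.000787).

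Fbn1 rose 2.45-fold against sham at 24 h (log2 1.29, SE 0.23, edgeR adjusted p = 0.000465). The step from 6 h to 24 h was 1.23 on the log2 scale (SE 0.23, edgeR adjusted p = 0.00145) and that from 24 h to 72 h 1.92 (SE 0.24, edgeR adjusted p = 6.02e-06). At 72 h it stood 9.3-fold above sham (log2 3.22, SE 0.25, edgeR adjusted p = 1.57e-08), with all 3 libraries at least as high as 425 CPM and the highest library of any earlier time at 148 CPM. A predicted gene on the other strand with overlapping exons held at most 36 counts in any library, beside up to 20742 of Fbn1.

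Mfap5 (ENSMUSG00000030116; GRCm38, chromosome 6, 122505845 to 122529290, plus strand), a small glycoprotein bound along fibrillin, moved in 2 steps. It held 25.9, 18.8 and 24.6 CPM in sham and stayed within 20.2 and 34.4 CPM through 1 h. It then held 52.2, 44.2 and 38.9 CPM at 6 h, 45.6, 48.2 and 45.3 CPM at 24 h, and 210.4, 185 and 159 CPM at 72 h. The rise from 1 h to 6 h was 1.92-fold (log2 0.94, SE 0.17, edgeR adjusted p = 0.000758). In that step 4 of the 10 genes rose (Eln, Mfap5, Emilin1 and Efemp2), where 14.5% of all genes did; the call of Efemp2 (log2 0.48, edgeR adjusted p = 0.0314) was lost with library totals (0.39, adjusted p = 0.0807), with limma on FPKM and when any of 4 libraries was left out. Between 6 h and 24 h the libraries overlapped (log2 0.04, SE 0.16, edgeR adjusted p = 0.877). From 24 h to 72 h Mfap5 rose 3.98-fold (log2 1.99, SE 0.17, edgeR adjusted p = 3.46e-08) and then stood 8.0-fold above sham (log2 3.0, SE 0.17, edgeR adjusted p = 1.77e-10).

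Emilin1 (ENSMUSG00000029163; GRCm38, chromosome 5, 30913402 to 30921277, plus strand), a glycoprotein of the border between elastin and microfibril, also rose at 6 h and again at 72 h. Its libraries held 46.3, 41.3 and 45.8 CPM in sham, 37.8 to 51.4 CPM at 10 min and 1 h, and 87.3, 77.5 and 76.1 CPM at 6 h. They held 72.2, 93.8 and 99.2 CPM at 24 h and 269, 336 and 269.5 CPM at 72 h. Emilin1 doubled from 1 h to 6 h (fold 2.0, log2 SE 0.12, edgeR adjusted p = 3.18e-05), and the 6 h and 24 h libraries overlapped (log2 0.14, SE 0.12, edgeR adjusted p = 0.42). Scaled to library totals, the 6 h to 24 h step was 0.45 (edgeR adjusted p = 0.00806). At 72 h Emilin1 stood 6.55-fold above sham (log2 2.71, SE 0.13, edgeR adjusted p = 8.64e-12). Over the 18 libraries the log2 CPM of Emilin1 and Mfap5 had a Pearson r of 0.98, the highest of any pair of the 10 genes. The lowest was -0.23, for Fbln1 and Efemp2. Both are given as a description, since the groups and their scaling are shared.

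Mfap4 (ENSMUSG00000042436; GRCm38, chromosome 11, 61485431 to 61488900, plus strand), a fibrinogen-like protein that binds elastin and fibrillin, had the widest range of the 10. Sham libraries held 9.86, 6.85 and 13.7 CPM, and the values at 10 min, 1 h and 6 h lay between 6.22 and 11.3 CPM. At 24 h they were 3.71, 6.76 and 2.47 CPM, all below the lowest sham library. At 72 h they were 163, 138 and 195 CPM. The change at 24 h was -1.20 (SE 0.33, edgeR adjusted p = 0.00853); without sham replicate 3 it was -0.92 and did not pass (adjusted p = 0.0508). From 24 h to 72 h Mfap4 rose 37.3-fold (log2 5.22, SE 0.34, edgeR adjusted p = 1.62e-08), and at 72 h it stood 16.2-fold above sham (log2 4.02, SE 0.32, edgeR adjusted p = 3.72e-08). Mapk7, on the other strand with overlapping exons, held 15.0 ± 1.42 CPM in sham, 26.7 ± 9.69 CPM at 24 h and 37.0 ± 0.291 CPM at 72 h, and whether counting used strand is not stated.

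**Figure D2:**
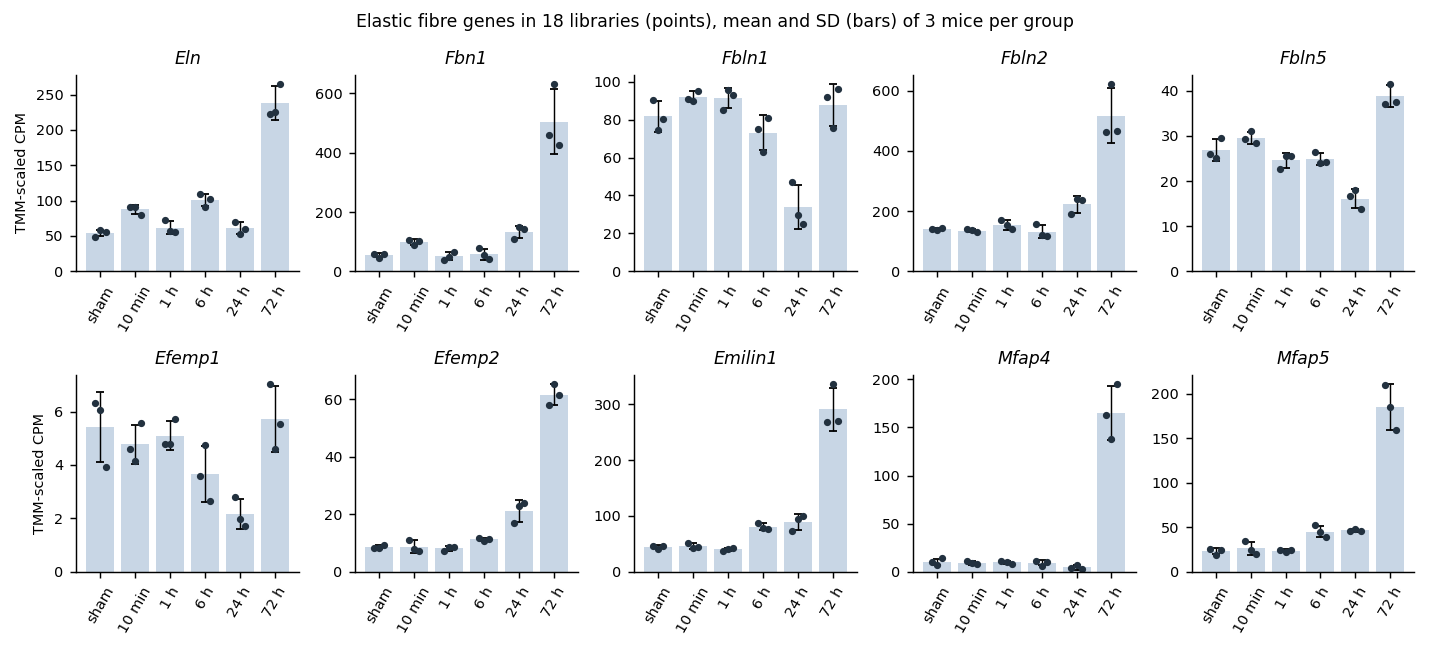
TMM-scaled CPM (y axis, linear from 0, a scale of its own for each gene) of the 10 elastic fibre genes in 6 groups in order of time (x axis); points are the 18 libraries, and bars with whiskers the mean and SD of 3 mice. Mfap4 goes from a mean of 4.31 CPM at 24 h to 165 CPM at 72 h, while Fbln1 and Efemp1 are lowest at 24 h and overlap sham at 72 h.

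The short fibulins Fbln5, Efemp1 (fibulin-3) and Efemp2 (fibulin-4), and the longer Fbln1, are shown with the sequence before their start site. Promoter windows from RefSeq (GRCm38.p6) were matched for 7 of the 10 genes, and 4 of their 11 windows held no annotated exon. Only those 4 windows are printed, and the changes with time played no part in the choice. Each run goes from 250 to 11 bases before the start, 5′ to 3′ on the gene's strand, with capitals for matches to an AP-1 element (TGANTCA), a TEAD element (GGAATG), a GC box (GGGCGG) or a TATA box (TATAAA) on either strand. The windows are chr15:85205699-85205938 (plus strand) for Fbln1, chr12:101819130-101819369 (minus strand) for Fbln5, chr11:28852955-28853194 (plus strand) for Efemp1 and chr19:5473696-5473935 (plus strand) for Efemp2.
Fbln1: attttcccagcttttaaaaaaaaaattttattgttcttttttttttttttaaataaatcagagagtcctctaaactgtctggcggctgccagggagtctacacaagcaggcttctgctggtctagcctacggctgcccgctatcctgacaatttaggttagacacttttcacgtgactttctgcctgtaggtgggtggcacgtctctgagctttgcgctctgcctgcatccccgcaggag
Fbln5: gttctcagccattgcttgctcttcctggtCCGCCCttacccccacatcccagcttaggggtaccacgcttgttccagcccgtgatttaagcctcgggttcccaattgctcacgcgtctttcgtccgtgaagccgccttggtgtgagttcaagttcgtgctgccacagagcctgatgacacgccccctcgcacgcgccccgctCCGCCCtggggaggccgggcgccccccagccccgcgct
Efemp1: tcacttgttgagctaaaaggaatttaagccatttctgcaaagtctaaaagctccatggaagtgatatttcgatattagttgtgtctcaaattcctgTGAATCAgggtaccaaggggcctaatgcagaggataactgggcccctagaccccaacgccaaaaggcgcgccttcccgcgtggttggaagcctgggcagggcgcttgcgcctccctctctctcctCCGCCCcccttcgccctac
Efemp2: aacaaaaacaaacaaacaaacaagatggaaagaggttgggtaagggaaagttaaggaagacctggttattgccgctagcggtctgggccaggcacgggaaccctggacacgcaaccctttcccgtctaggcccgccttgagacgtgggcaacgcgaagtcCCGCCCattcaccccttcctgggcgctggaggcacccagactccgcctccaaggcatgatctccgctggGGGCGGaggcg
The Fbln1 window held 0 of the 4 elements, Fbln5 and Efemp2 each held 2 GC boxes, and Efemp1 held 1 AP-1 element and 1 GC box. Over 32851 windows of 240 bases in the mouse table, 31.3% held a GC box, 6.58% an AP-1 element, 12.2% a TEAD element and 12.1% a TATA box. These matches describe letters and not binding.

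Fbln5 (ENSMUSG00000021186; GRCm38, chromosome 12, 101746565 to 101819055, minus strand) encodes the fibulin that tethers tropoelastin and lysyl oxidase-like 1 to microfibrils and to integrins. It held 25.9, 25 and 29.6 CPM in sham and 22.7 to 31.0 CPM at 10 min, 1 h and 6 h. At 24 h it held 16.6, 17.9 and 13.9 CPM, below every earlier library, and at 72 h 37.1, 41.5 and 37.6 CPM, above every earlier library. It fell by 0.73 on the log2 scale at 24 h against sham (SE 0.10, edgeR adjusted p = 3.2e-05) and was 1.44-fold above sham at 72 h (log2 0.53, SE 0.10, edgeR adjusted p = 0.000134). The rise from 24 h to 72 h was 2.4-fold (log2 1.26, SE 0.10, edgeR adjusted p = 1.71e-08).

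Efemp1 (ENSMUSG00000020467; GRCm38, chromosome 11, 28853204 to 28926743, plus strand) was the least abundant of the 10, with 33 to 223 counts per library. Sham libraries held 6.32, 6.07 and 3.91 CPM and those at 24 h 2.81, 1.98 and 1.70 CPM, with no overlap. It fell by 1.32 on the log2 scale against sham at 24 h (SE 0.25, edgeR adjusted p = 0.000488). At 72 h it held 7.03, 4.60 and 5.54 CPM, overlapping sham, and the difference from sham was 0.08 (SE 0.23, edgeR adjusted p = 0.783). Scaled to library totals that difference was 0.67 and passed (edgeR adjusted p = 0.0139). At 6 h the difference of Efemp1 from sham was -0.56 and was not called (edgeR adjusted p = 0.0943). It passed in 5 of 15 alternatives, such as library totals (-0.66, edgeR adjusted p = 0.0449).

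Efemp2 (ENSMUSG00000024909; GRCm38, chromosome 19, 5473954 to 5482517, plus strand), needed for lysyl oxidase to reach elastin, moved the other way at 24 h. It held 8.34, 8.25 and 9.42 CPM in sham, 11.6, 10.7 and 11.4 CPM at 6 h, 16.8, 22.8 and 23.8 CPM at 24 h, and 58.0, 65.2 and 61.3 CPM at 72 h. The 6 h libraries lay above all sham libraries without passing the test (log2 0.37, SE 0.15, edgeR adjusted p = 0.0746). Efemp2 rose 2.44-fold against sham at 24 h (log2 1.29, SE 0.15, edgeR adjusted p = 5.58e-06) and 7.09-fold at 72 h (log2 2.82, SE 0.15, edgeR adjusted p = 3.63e-11). Mus81, whose exons overlap it on the other strand, held 22.0 ± 0.517 CPM in sham, 23.0 ± 1.97 at 24 h and 16.0 ± 2.03 CPM at 72 h.

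Fbln1 (ENSMUSG00000006369; GRCm38, chromosome 15, 85205949 to 85286535, plus strand), a fibulin of basement membranes and elastic fibres, was lowest at 24 h. It held 90.5, 74.3 and 80.4 CPM in sham, 85.2 to 95.6 CPM at 10 min and 1 h, and 75.2, 63.1 and 81.0 CPM at 6 h. At 24 h it held 47.1, 29.8 and 25 CPM, and at 72 h 91.8, 75.4 and 96.3 CPM. It fell by 1.27 on the log2 scale against sham at 24 h (SE 0.17, edgeR adjusted p = 2.88e-05), by 1.10 from 6 h to 24 h (SE 0.17, edgeR adjusted p = 0.000241), and rose by 1.37 from 24 h to 72 h (SE 0.17, edgeR adjusted p = 4.07e-06). The 72 h libraries overlapped sham (log2 0.10, SE 0.17, edgeR adjusted p = 0.603); scaled to library totals the difference was 0.69 (edgeR adjusted p = 0.0005).

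Fbln2 (ENSMUSG00000064080; GRCm38, chromosome 6, 91212455 to 91272540, plus strand), a large fibulin that binds fibrillin-1 and tropoelastin, rose at 24 h and again at 72 h. It held 139, 137 and 143 CPM in sham, 118 to 171 CPM through 6 h, 191, 240 and 236 CPM at 24 h, and 464, 622 and 466 CPM at 72 h. It rose 1.59-fold against sham at 24 h (log2 0.67, SE 0.13, edgeR adjusted p = 0.000618) and 3.7-fold at 72 h (log2 1.89, SE 0.14, edgeR adjusted p = 1.53e-09).

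From 6 h to 24 h, 3 of the 10 rose (Fbn1, Fbln2 and Efemp2) and 5 fell (Eln, Fbln1, Fbln5, Efemp1 and Mfap4), where 14.2% of all genes rose and 13.7% fell. The falls of Efemp1 and Mfap4 in that step had overlapping libraries and were lost in several alternative fits; with library totals they were -0.47 (edgeR adjusted p = 0.143) for Efemp1 and -0.70 (edgeR adjusted p = 0.125) for Mfap4. From 24 h to 72 h all 10 were called higher, where 24.4% of all genes were. Each of the 10 also had its 3 libraries at 72 h above its 3 at 24 h. How many of all genes had such a separation was not counted. The log2 changes of the 10 ran from 1.22 for Fbln2 to 5.22 for Mfap4, with a median of 1.63 beside -0.03 over all genes. Scaling to library totals moves the median of all genes to 0.36 in that step and to 0.33 from 6 h to 24 h. Against sham that median becomes -0.12 (6 h), 0.20 (24 h) and 0.61 (72 h). Under library totals all 10 genes still rose from 24 h to 72 h.

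The mice differed at 24 h. In replicate 3 cardiomyocyte markers summed to 25324 CPM, against 38689.7 and 39472 CPM in the others, and leukocyte markers to 848 CPM against 279 and 172 CPM. Fbln1, Fbln5, Efemp1 and Mfap4, the 4 genes that fell against sham at 24 h, were each lowest in that library. Without it the same 4 genes fell and the same 5 rose, with log2 changes against sham of -1.09 for Fbln1, -0.64 for Fbln5, -1.18 for Efemp1 and -0.94 for Mfap4 (edgeR adjusted p from 5.37e-05 for Fbln1 to 0.0438 for Mfap4).

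Fibroblast markers did not move as 1 block at 24 h. Of 11, 4 rose (Pdgfra, Col1a1, Col1a2 and Col3a1) and 4 fell (Dcn, Dpt, Gsn and Tcf21; these genes were named after their values were seen), and their sum was 1674 to 2147 CPM against 2383 to 2724 CPM in sham. Gsn alone went from 1465 ± 117 CPM in sham to 643 ± 147 CPM, and the other 10 markers summed to 1102 to 1601 CPM at 24 h and 1052 to 1202 CPM in sham, which overlap. Of 6 markers of adventitial fibroblasts, 3 fell at 24 h (Clec3b by 1.54, Dpp4 by 1.32 and Pi16 by 0.75 on the log2 scale; named after their values were seen) and Ly6a rose. Of 8 myofibroblast markers 6 rose at 24 h and 8 at 72 h, with sums of 192 to 266 CPM in sham, 635 to 1123 CPM at 24 h and 3908 to 5046 CPM at 72 h; Postn, a matricellular protein, held 21.1 CPM in sham and 1565 CPM at 72 h. At 72 h 9 of 11 fibroblast markers rose, Gsn fell by 1.54 on the log2 scale (SE 0.19, edgeR adjusted p = 1.1e-06), and the sum reached 12339 to 15751 CPM, with Col1a1, a chain of type I collagen, at 3549 ± 698 CPM against 74.4 ± 12.9 CPM in sham. Beside these counts, 23.7% of all tested genes rose and 20.2% fell at 24 h. At 72 h 34.2% rose and 32.2% fell. The part of these cell types in the elastic fibre values was not tested.

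Other cells that can make elastin are given in the same way. Vascular smooth muscle markers summed to 1394 to 1608 CPM at 72 h, below all sham libraries. Of the 8, 6 fell and 2 rose, Tagln and Cnn1, each by 1.59 on the log2 scale (named after their values were seen). Des made up 1286 ± 93.9 CPM of the sum at 72 h, and the other 7 markers summed to 216 to 275 CPM, against 445 to 475 CPM in sham. All 6 pericyte markers fell at 72 h, from 1219 to 1251 CPM in sham to 479 to 555 CPM. Epicardial and mesothelial markers summed to 15.8 to 26.4 CPM in sham and 75.6, 24.2 and 28.6 CPM at 72 h, so replicate 1 was higher than the others. That library was the highest of its group for Mfap5 (210.4 CPM) and Efemp1 (7.03 CPM) and not for the other 8 elastic fibre genes. Of 8 endothelial markers 6 fell at 72 h, and of 3 tested endocardial markers 2 fell and 1 rose. Beside these counts, 34.2% of all tested genes rose and 32.2% fell at 72 h.

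Ranked per length of gene (CPM per kilobase, kb), Fbln2 at 21.9 ± 0.455 and Fbln1 at 18.7 ± 1.88 CPM per kb led the sham heart. Emilin1 followed at 9.01 ± 0.551, and the libraries of these 3 did not overlap. Eln at 6.68 ± 0.578, Mfap5 at 6.43 ± 1.06, Mfap4 at 5.27 ± 1.78, Fbn1 at 4.48 ± 0.571 and Fbln5 at 3.89 ± 0.353 CPM per kb came next, each overlapping its neighbour. Efemp2 at 3.27 ± 0.246 and Efemp1 at 2.67 ± 0.65 CPM per kb were the lowest. Efemp2 was divided by the 2648 bases implied by FPKM, and its M21 exon length of 3788 bases would put it lower. The rank of Efemp2 in sham and at 72 h therefore depends on the length used.

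By 72 h the top of the order had changed, and with these lengths Efemp1 was again last. Mfap4 at 85.9 ± 14.8 and Fbln2 at 81.2 ± 14.2 CPM per kb overlapped and led, then Emilin1 at 59.0 ± 7.78, Mfap5 at 51.5 ± 7.22 and Fbn1 at 41.7 ± 9.12 CPM per kb, each overlapping its neighbour. Eln at 29.4 ± 2.9 stood apart from both neighbours, Efemp2 at 23.2 ± 1.37 overlapped Fbln1 at 20.1 ± 2.52, and Fbln5 at 5.61 ± 0.348 and Efemp1 at 2.81 ± 0.603 CPM per kb were apart and last. Mfap4 had been ninth at 24 h, at 2.24 ± 1.15 CPM per kb.

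The summed level of the 10 genes per length was 82.3 ± 5.13 CPM per kb in sham, 106 ± 7.08 at 24 h and 400.5 ± 16.6 CPM per kb at 72 h. Fbln1 made up 22.7% ± 1.45 of that sum in sham, 7.48% ± 3.1 at 24 h and 5.04% ± 0.806 at 72 h. Mfap4 made up 6.34% ± 1.86 in sham, 2.11% ± 0.987 at 24 h and 21.6% ± 4.28 at 72 h. Eln, the fibre's core, went from 8.16% ± 1.16 in sham to 11.7% ± 0.798 at 10 min and 12.8% ± 0.628 at 6 h, and was 7.35% ± 0.856 at 72 h. Its share at 72 h, 6.64% to 8.3%, overlapped its sham share, 7.1% to 9.4%.

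**Figure D3:**
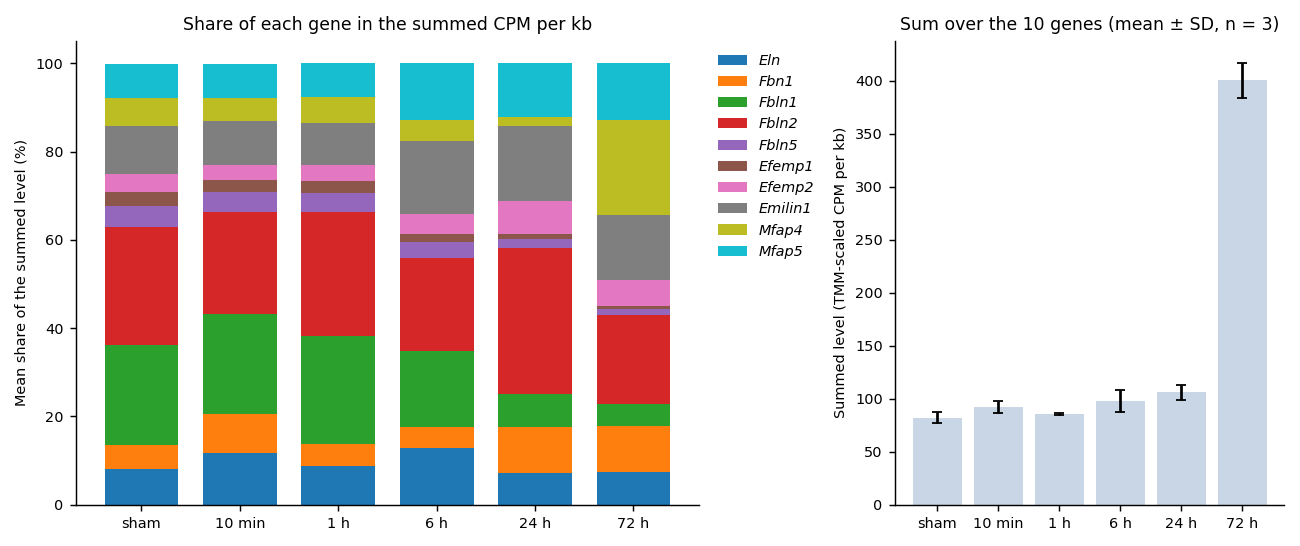
Left, mean share of each gene in the summed level per length of the 10 elastic fibre genes (y axis, percent, stacked) in each group; right, the sum itself (CPM per kb, mean and SD of 3 mice, axis from 0). The Fbln1 share shrinks from 22.7% in sham to 5.04% at 72 h and the Mfap4 share goes from 6.34% to 21.6%, while the sum reaches 400.5 CPM per kb.

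Genes whose log2 CPM over the 18 libraries was most like that of Eln were the lysosomal sulfatase Arsa (r = 0.946), Mlec, a lectin of the endoplasmic reticulum (r = 0.944), Abca1 (r = 0.935), Nsg1 (r = 0.931) and the cathepsin Ctsl (r = 0.926), of 11718 genes ranked. Like Eln, Abca1, a cholesterol exporter, had higher means at 6 h (52.9 ± 11.9 CPM) and 72 h (120.4 ± 10.2 CPM) than in sham (30.0 ± 1.75 CPM) or at 24 h (34.7 ± 8.98 CPM). At 10 min, unlike Eln, Abca1 overlapped sham (28.1 to 39.5 CPM against 28.7 to 32.0 CPM). Those most like Fbn1 were Col6a3 (r = 0.982), Bok (r = 0.978), the lysyl oxidase-like enzyme Loxl2 (r = 0.974), Anxa5 (r = 0.973) and Cyp51, a sterol synthesis enzyme (r = 0.971). Col6a3, a chain of type VI collagen, held 26.5 ± 4.16 CPM in sham, 41.3 ± 5.51 CPM at 10 min, 70.7 ± 10.8 CPM at 24 h and 201 ± 62.6 CPM at 72 h. Each r is a description over libraries that share groups and scaling.

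Of 12 other components of microfibrils and elastic fibres, 6 rose and 4 fell at 72 h, where 34.2% of all tested genes rose and 32.2% fell. Their median log2 change was 0.69, beside 0.03 over all genes. Ltbp2, which lines microfibrils without binding latent TGF-beta, rose from 2.95 to 172 CPM (log2 5.85, SE 0.30, edgeR adjusted p = 2.86e-10), and Ltbp3 rose from 48.7 to 126 CPM (log2 1.37, SE 0.10, edgeR adjusted p = 1.99e-09). Fbn2, the fibrillin of development, rose by 3.76 and Mfap2 by 2.84 on the log2 scale. Those that fell were Vtn (-1.58), Mmrn2 (-0.85), Ltbp4 (-0.76) and Ltbp1 (-0.64). Of the 4 that fell, Ltbp4, a partner of Fbln5 in elastin assembly, was the most abundant, at 628 ± 21.5 CPM in sham and 370.2 ± 54.5 CPM at 72 h. Apart from Ltbp2 and Ltbp3, the components given by name here were chosen after their values were seen. Ltbp2 is also on the myofibroblast list and Vtn on the pericyte list, so their calls count in both lists.

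Enzymes that cross-link elastin and factors that assemble microfibrils numbered 12. Of the 12, 3 rose at 6 h, 7 at 24 h and 9 at 72 h, while 1, 2 and 2 fell. Of all tested genes 16.3%, 23.7% and 34.2% rose at these times and 12.2%, 20.2% and 32.2% fell. The median log2 change of the 12 at 72 h was 1.08, beside 0.03 over all genes. Lox, the lysyl oxidase that oxidises lysines of elastin and collagen, was 5.14 CPM in sham and rose to 37.6 CPM at 6 h (log2 2.87, SE 0.26, edgeR adjusted p = 3.84e-06). It held 35.7 CPM at 24 h and 298 CPM at 72 h (log2 against sham 5.85, SE 0.28, edgeR adjusted p = 1.34e-10). Loxl3 held 6.01 CPM in sham, 11.3 CPM at 24 h and 101 CPM at 72 h (log2 4.06, SE 0.20, edgeR adjusted p = 1.71e-11). Loxl1, which Fbln5 brings to elastin, held 56.9 ± 6.74, 137 ± 32.1 and 388 ± 10.5 CPM in those groups and was named after its values were seen.

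Proteases that cut elastin numbered 8 tested genes, of which 4 rose at 6 h, 5 at 24 h and 8 at 72 h, while 1, 1 and 0 fell; Mmp7, Elane and Ctsg, at 3 counts or fewer in every library, were not tested. Of all tested genes 16.3%, 23.7% and 34.2% rose at these times and 12.2%, 20.2% and 32.2% fell. The median log2 change of the 8 tested proteases at 72 h was 4.57, beside 0.03 over all genes. It was 4.06 with Prtn3, which had at most 3 counts in any sham library, set to its lower bound. Ctss, a cathepsin of macrophages, held 12.8 CPM in sham, 82.8 CPM at 24 h and 578 CPM at 72 h (log2 5.49, SE 0.22, edgeR adjusted p = 5.94e-12). Ctsk, the other strong elastase among the cathepsins, held 5.30 CPM in sham, 6.37 CPM at 24 h and 49.1 CPM at 72 h (log2 3.21, SE 0.13, edgeR adjusted p = 2.55e-12). The gelatinase Mmp2 fell at 24 h, from 50.1 ± 2.69 to 27.4 ± 1.89 CPM, and rose to 97.0 ± 4.71 CPM at 72 h; it was named after its values were seen.

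Receptors for elastic fibres and parts of the elastin receptor complex numbered 10. Of these 4 rose at 6 h, 4 at 24 h and 9 at 72 h, where 16.3%, 23.7% and 34.2% of all tested genes rose. The shares of all genes that fell were 12.2%, 20.2% and 32.2%. The median log2 change of the 10 at 72 h was 1.36, beside 0.03 over all genes. Itgb6, an epithelial integrin chain named after its values were seen, fell at each of these times, by 1.43, 1.57 and 0.97 on the log2 scale. Ctsa, the protective protein of the complex, rose from 130 to 342 CPM at 72 h (log2 1.39, SE 0.10, edgeR adjusted p = 1.61e-09). Glb1, whose splice form binds elastin peptides, rose from 15.7 to 40.1 CPM (log2 1.35, SE 0.13, edgeR adjusted p = 3.22e-08), and gene counts do not separate that form.

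**Figure D4:**
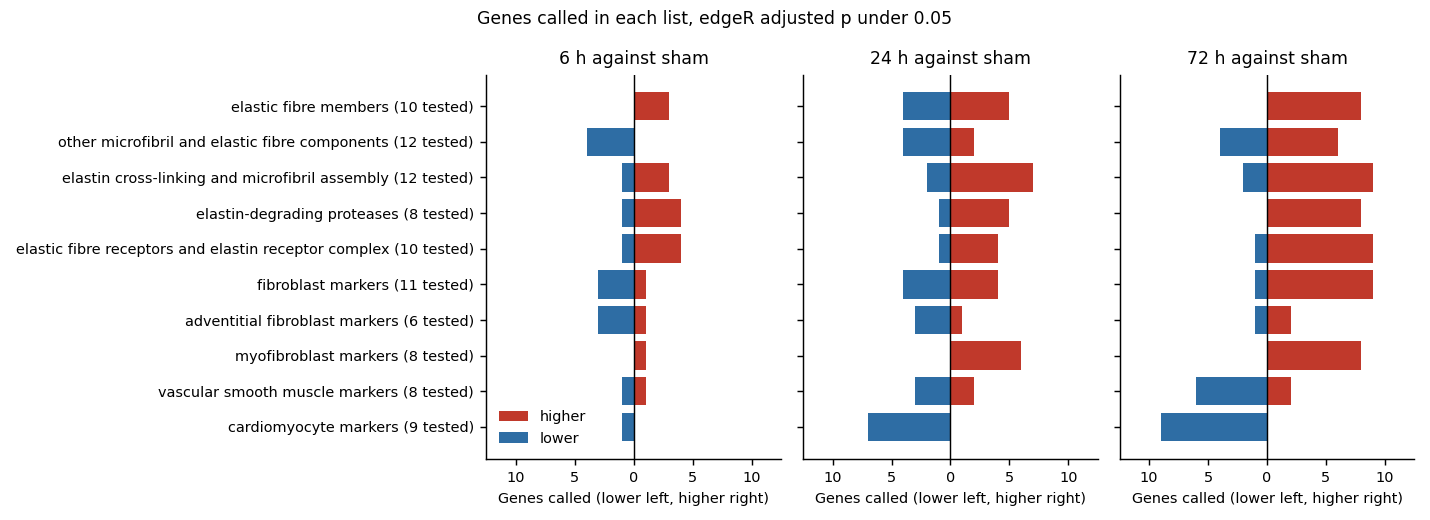
Number of genes called against sham (x axis, lower to the left and higher to the right) in each gene list (rows, with the number tested) at 6, 24 and 72 h. The 10 elastic fibre genes stand at 3 higher at 6 h, 5 higher and 4 lower at 24 h and 8 higher at 72 h, and all 9 cardiomyocyte markers are lower at 72 h. Of all tested genes 16.3%, 23.7% and 34.2% were higher at 6, 24 and 72 h, and 12.2%, 20.2% and 32.2% were lower.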

How the data were processed

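Per the submitters' processing notes, reads were handled with cutadapt 1.18, HISAT2 2.1.0 and featureCounts on genome build mm10; how these were set, and any use of strand, is not given in the sources used here. The authors deposited whole-number read counts per Ensembl gene for each library and FPKM for the same genes. The deposited FPKM match counts divided by gene length and library total; for replicates 2 and 3 at 6 h each FPKM file matched the other's counts (whole lengths within 0.01 bases), so FPKM was used only in alternatives. Symbols and coordinates are from GENCODE M21 (GRCm38), which named 30512 of 30583 genes. Lengths implied by FPKM equalled the M21 exon length for 9 of the 10 genes (not Efemp2, 2648 against 3788 bases).

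The tool for the counts was edgeR 4.0.16 (R 4.3.3). Its filterByExpr removed 14272 genes, libraries were scaled by TMM (factors 0.825 to 1.434, with 1.357 or more at 72 h), and a robust quasi-likelihood model gave each group its mean and took the spread from all 18 libraries. Tests were two-sided, adjusted by Benjamini-Hochberg over 16311 genes and called under 0.05. Each library is 1 mouse. Alternatives used DESeq2 1.42.0, limma 3.58.1 on log2(FPKM + 1) or + 0.1, other filters and scalings, and each library left out in turn. The code was tested on simulated data. The naming rule took the 10, the 2 smallest adjusted p over all groups in each other list, and the 5 most alike to Eln and to Fbn1 (mean of at least 50 counts, no predicted genes). Not every gene that the rule took is named. Further genes are named for an overlap with 1 of the 10, for low counts, or after their values were seen. The 10 genes and all lists were chosen with earlier results of these data known.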

Additional observations from a re-analysis of the deposited data

Results flagged for a closer look

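Fbln5 and Mfap4 were each called lower than sham at 24 h and higher than sham at 72 h, and the difference between these 2 times was itself tested. For Fbln5 the log2 change from 24 h to 72 h was 1.26 (SE 0.10, edgeR adjusted p = 1.71e-08), with 3 of 3 libraries at 72 h above 3 of 3 at 24 h. For Mfap4 it was 5.22 (SE 0.34, edgeR adjusted p = 1.62e-08), also with no overlap. Both comparisons with sham use the same 3 sham libraries.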

How the results depend on the processing

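Of 90 log2 fold changes of the 10 genes (9 comparisons), 43 were called, and 38 of these kept their call under all alternatives run; over 1350 alternative values, 33 lost a call, 23 gained one and 0 called values changed sign. The number of the 10 called at 10 min, 1 in the fit reported, was 2 with DESeq2, 0 with limma on log2(FPKM + 1), 0 with limma on log2(FPKM + 0.1), 2 in a fit of the 2 groups alone and 0 to 0 when leaving out 1 library. The number called from 10 min to 1 h, 0 in the fit reported, was 1 without a filter on low counts, 2 with DESeq2 and 1 in a fit of the 2 groups alone. Counts at other times stayed within 1.5 times: 3 to 4 at 6 h, 8 to 10 at 24 h and 8 to 10 at 72 h against sham. Besides Eln at 10 min, 4 calls were lost in at least 1 alternative. Mfap4 at 24 h against sham was lost without sham replicate 3. Efemp2 from 1 h to 6 h was lost with library totals (0.39, edgeR adjusted p = 0.0807), with limma on log2(FPKM + 1) (0.30, adjusted p = 0.117) or + 0.1 (0.38, adjusted p = 0.0817), and without 1 h replicate 1 or 2 or 6 h replicate 1 or 3. Efemp1 from 6 h to 24 h was lost with library totals (-0.47, edgeR adjusted p = 0.143), with limma (-0.26, adjusted p = 0.192, and -0.42, adjusted p = 0.138), in a fit of the 2 groups alone (edgeR adjusted p = 0.151), and without 6 h replicate 1 or 2 or 24 h replicate 2 or 3. Mfap4 from 6 h to 24 h was lost with library totals (-0.70, edgeR adjusted p = 0.125), without a filter (edgeR adjusted p = 0.0999), with limma on log2(FPKM + 1) (-0.61, adjusted p = 0.0724), in a fit of the 2 groups alone (edgeR adjusted p = 0.122), and without 6 h replicate 1 or 3 or 24 h replicate 1 or 3. The cause was not tested. Of the counts over other lists, 614 alternatives lay within 1.5 times and 61 beyond. Whether replicate numbers pair the mice was not settled, since these correlations could miss a weak shared effect. Library deviations from group means had correlations of -0.26 to 0.25 in 45 same-number pairs (median 0.04, 4 over 0.1). In 90 different-number pairs they were -0.35 to 0.45 (median -0.01, 9 over 0.1). With a replicate block the counts called were 1, 0, 3, 9 and 8 against sham, and Mfap4 from 6 h to 24 h was lost (-1.0, edgeR adjusted p = 0.0556). Depth limits Efemp1 most, with as few as 33 counts.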
